A study of Mus musculus with 67 samples.

Results

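The 8C medium for mouse small intestinal organoids holds 8 additives, and the comparison described here takes away the VPA and EPZ6438 it contains and sets the remaining 6 against the standard ENR medium. It rests on the 7 bulk RNA-seq libraries of organoids labelled 8C -VE (called 8C-VE below) and the 7 libraries labelled ENR, that is 14 of the 67 samples of the series. The libraries were assigned by these labels alone, and not by any measured value. The comparison itself and the gene lists were chosen with earlier results of these data known. The comparison asks what the base of the 8C medium does in the absence of the pair of epigenetic inhibitors.

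Intestinal organoids are cultures of epithelium grown from crypts, here from the proximal small intestine of mice aged 6 to 12 weeks, embedded in Matrigel and passaged every 7 days. The donor strain of these libraries is not given in the sources used here. ENR medium was supplemented with EGF at 50 ng/mL, Noggin at 100 ng/mL and R-Spondin 1 at 500 ng/mL. 8C-VE medium contained the same EGF dose, bFGF at 20 ng/mL, R-Spondin 1 as 10% conditioned medium, and the inhibitors LDN193189 at 0.2 µM, GSK3iXV at 0.1 µM and Pexmetinib at 1 µM. The groups used beside these are the 7 libraries of complete 8C medium, which adds 500 µM VPA and 2 µM EPZ6438 to the 8C-VE additives, and the 3 libraries labelled ENR+VE, in which ENR medium received both drugs at doses that are not given in the sources used here. Both base media therefore shared EGF, and differed in the BMP blocker, in the source of R-Spondin 1 and in 3 added factors at the same time, so the part of each single factor cannot be told apart in this comparison. Hyper-organoids were also split more sparsely at passage than ENR-organoids, and a serum replacement was advised for them. Whether either applied to the 8C-VE libraries is not given in the sources used here, and neither can be told apart from the medium. Hyper-organoids, as organoids in the complete 8C medium are called, could be started from ENR-organoids or from crypts. The study speaks of its bulk omissions as components withdrawn from Hyper-organoids, and elsewhere of ENR-organoids moved into 8C medium with or without the drugs, and which of these histories each 8C-VE library had is not given in the sources used here.

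The additives act on pathways that together set the balance between renewal and differentiation in the crypt. R-Spondin 1 amplifies Wnt signalling, the main signal that keeps crypt base stem cells in place, and GSK3iXV inhibits GSK3, the kinase that marks beta-catenin for destruction, and thus acts on the same pathway. Noggin binds BMP ligands outside the cell while LDN193189 inhibits the BMP type I receptor kinases, both of which lower the BMP signal that drives cells towards the villus fate. EGF and bFGF feed the RAS-ERK cascade, and Pexmetinib inhibits p38 and the receptor TIE2. VPA inhibits histone deacetylases and EPZ6438 inhibits EZH2, the enzyme that places methyl groups on lysine 27 of histone H3.

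Values were in TPM, a measure of transcript abundance that is scaled for transcript length and library total and keeps no record of sequencing depth. The column sums of the 14 libraries lay between 983801 and 988066 TPM. All 8 defining epithelial markers were abundant, with a summed level of 11100 to 14800 TPM in 8C-VE and 9070 to 13800 TPM in ENR, and Epcam never fell under 1410 TPM. The 8 fibroblast and muscle markers summed to 0.257 to 2.23 TPM in 8C-VE and 0.35 to 1.7 TPM in ENR, with Lum at 0 in all 14 libraries. The 6 endothelial and glial markers summed to 0.86 to 2.96 TPM in 8C-VE and 0.952 to 2.31 TPM in ENR, with Sox10 at 0 throughout. The 8 immune markers summed to 3.38 to 7.26 TPM in 8C-VE and 2.68 to 8.88 TPM in ENR, mostly through Cd68, and Ptprc stayed at or under 0.079 TPM. The captions for bulk RNA-seq of ENR, 8C and omission organoids count mice, but fewer than the 7 libraries of a medium here, and neither labels nor captions assign libraries to mice. Some libraries may therefore share a mouse, and p-values measure the spread between libraries.

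The libraries fell into sets that crossed both media. Within a medium, libraries 1 to 3 resembled each other, as did libraries 4 to 6, and library 7 stood apart from both sets. Library pairs of the same medium and set correlated at 0.981 or more across genes, and pairs from different sets at 0.977 or less. The media were therefore compared within replicate numbers, with the number as a block in the model. Unequal numbers of the same set also matched across media, so the 7 numbers may stand for fewer independent repeats. Replicate 7 was the outlying library for 20 of the 22 gene and medium combinations in which a library stood apart among the genes followed here, and values without it are given where it matters.

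Of 11990 genes tested, 433 (3.61%) differed between 8C-VE and ENR at an adjusted p under 0.05 and at least 2-fold (limma with Benjamini-Hochberg adjustment, which underlies all adjusted p-values below). These genes are referred to as called. In 8C-VE, 154 genes were higher (1.28% of genes tested) and 279 were lower (2.33%). The excess of lower genes held only past the 2-fold limit. With no fold limit 1528 genes were higher and 753 lower at an adjusted p under 0.05, and 7926 of the 11990 genes tested had a positive difference. The 7 and 7 libraries did not overlap for 410 genes (3.42%), 167 of which were called. In 360 of the 433 called genes, all 7 replicate numbers moved in the same direction, against 2191 of the 11990 genes tested. The calls were made within the same replicate numbers, so no more is read from this count. Without replicate 7 the number of called genes was 496, with 183 higher and 313 lower. Libraries 1 to 3 alone gave 795 called genes, 566 of them lower, whereas libraries 4 to 6 alone gave 544, 335 of them higher. These sets share no library, and 235 genes were called in the same direction in both, which is 29.6% of the calls in libraries 1 to 3 and 43.2% of those in libraries 4 to 6. A further 10 genes were called in opposite directions. Fold changes are differences on log2(TPM + 1) and understate the change of genes with low TPM.

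The genes that rose furthest included those of the fetal-like or revival state, a programme that intestinal epithelium switches on during repair and that is otherwise seen before birth. The additives of complete 8C medium had been screened for raising Clu, Ly6a, Anxa1 and Reg3b, so the rises of Ly6a, Anxa1 and Clu below are not independent evidence of this state. The marker list, like all lists here, was chosen with earlier results of these data known. Its counts and medians are therefore a description and not a test. Of the 14 listed markers, 9 were expressed highly enough to be tested and 6 were called, all of them higher. The median log2 fold change of the 9 tested markers was 2.41, against 0.0833 over all genes tested. It was 2.54 in libraries 1 to 3, 2.7 in libraries 4 to 6 and 0.237 in replicate 7. The other markers were under the expression minimum of a mean of 1 TPM.

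Ly6a, which encodes the surface antigen Sca-1 and lies on chromosome 15 (74994877 to 74998031, minus strand, GRCm38), had the largest rise of all called genes. Its level was 2.46 to 16.5 TPM in ENR with a median of 8.59, and 43.7 to 187 TPM in 8C-VE with a median of 93.9. The lowest 8C-VE library lay above the highest ENR library. The log2 fold change was 3.59 ± 0.124 (SE, n = 7 per medium, adjusted p = 8.91e-07), and the difference within replicate numbers ran from 3.24 to 4.32, so that replicate 7 was no exception here.

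Msln, which encodes the surface protein mesothelin, was 0.1 to 9.39 TPM in ENR (median 0.593) and 7.35 to 71.4 TPM in 8C-VE (median 18), a log2 fold change of 3.25 ± 0.5 (adjusted p = 0.00248). Anxa1, a calcium-dependent phospholipid-binding protein with anti-inflammatory action, rose from a median of 1.32 TPM (0.636 to 27.6) to a median of 25.0 TPM (18.7 to 42.1), with a log2 fold change of 2.90 ± 0.366 (adjusted p = 0.000964). The groups overlapped for both genes because of the ENR library of replicate 7. Msln differed by -0.314 on the log2 scale in that number, against 3.01 to 4.55 in the others, and without it the log2 fold change was 3.84. Il1rn, the antagonist of the interleukin-1 receptor, did not overlap between media: it was 0.802 to 4.81 TPM in ENR (median 1.30) and 8.48 to 29.0 TPM in 8C-VE (median 12.2), a log2 fold change of 2.41 ± 0.206 (adjusted p = 0.000197). Anxa3 rose by a log2 fold change of 1.92 ± 0.222 (adjusted p = 0.000638).

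Clu, a secreted chaperone and marker of revival stem cells, was less uniform. It was 0.80 to 40.6 TPM in ENR with a median of 5.52 and 7.05 to 119 TPM in 8C-VE with a median of 26.8, and 6 of 7 replicate numbers moved up. In replicate 7 the difference was -2.37 on the log2 scale, against 2.59 to 3.95 in the other numbers. Over all libraries the log2 fold change was 2.46 ± 0.65 (adjusted p = 0.0282), and without replicate 7 it was 3.26. The call was lost when any single number from 1 to 6 was left out, with log2 fold changes of 2.21 to 2.44 in those fits. Cxadr, Sprr1a and Emp1, the other tested members, were not called.

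**Figure D1:**
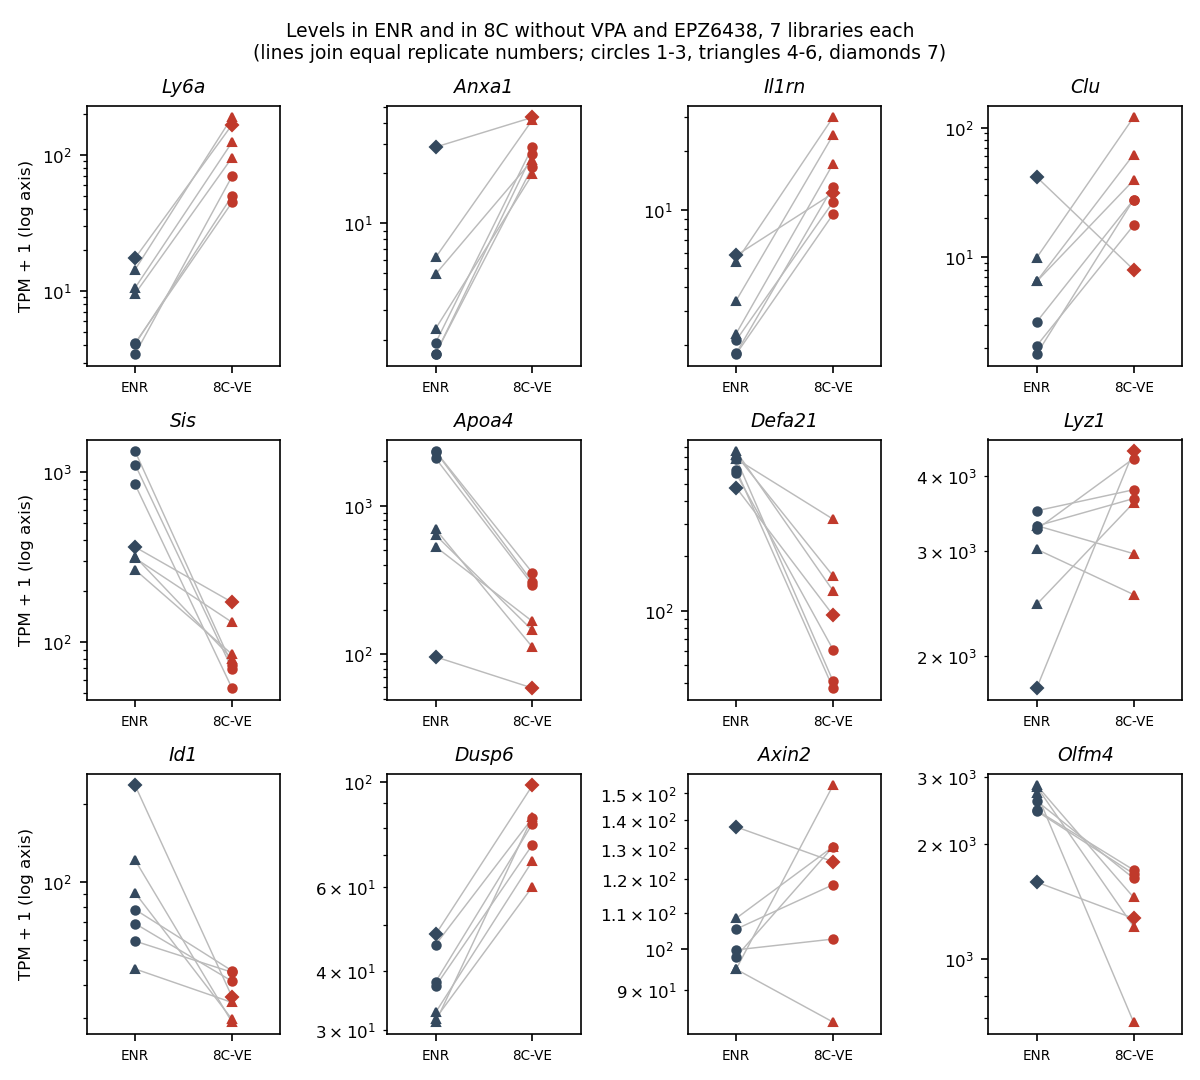
Level of 12 genes in each library, as TPM + 1 on a log axis, in ENR (dark) and 8C-VE (red); lines join equal replicate numbers, circles are numbers 1 to 3, triangles 4 to 6 and diamonds 7. Ly6a, Dusp6, Sis, Defa21 and Id1 did not overlap between media, Axin2 and Lyz1 overlapped, and Clu fell only in number 7.

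Outside this list, the largest non-overlapping rises included Ly6d and Ly6c1, which belong to the same family as Ly6a. Ly6d rose from a median of 0 TPM (0 to 3.05) to a median of 12.6 TPM (7.68 to 40.8), and Ly6c1 from a median of 0.449 TPM (0 to 1.01) to 7.11 TPM (1.35 to 15.7). Genes of the Ly6 family are close in sequence, so reads may have been divided among them. Lgals1, which encodes the glycan-binding protein galectin-1, rose from 11.9 TPM (5.51 to 34.7) to 58.5 TPM (40.3 to 135), with differences of 2.81 to 3.05 in numbers 1 to 3 and 0.908 to 1.33 in numbers 4 to 6. Anxa5, another annexin, rose from 20.2 TPM (14.9 to 58.7) to 105 TPM (92.0 to 114), a log2 fold change of 2.20 ± 0.178. Gprc5a, an orphan receptor that responds to retinoic acid, rose from 23.4 to 124 TPM in the median, and Igfbp4, a binding protein for insulin-like growth factors, from 90.1 to 316 TPM. Npnt, which encodes an integrin ligand of the basement membrane, rose by 1.79 ± 0.169, and Ppic, a cyclophilin, by 1.91 ± 0.201. Mup20, a major urinary protein, was listed at 0 to 0.270 TPM in ENR and at 1.17 to 6.86 TPM in 8C-VE.

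YAP is a transcriptional co-activator that works through the TEAD factors and is active in the regenerating epithelium. Of the 10 YAP target genes that the study named, 8 were in the table under these symbols, 6 were tested and 2 were called, both higher, with a list median of 0.511. These are the members of a wider signature of YAP overexpression, taken from earlier work, that the study singled out in displays of its own data, and how they were picked is not given in the sources used here. Ajuba, a LIM-domain protein that restrains the kinases upstream of YAP, was 6.54 to 10.7 TPM in ENR (median 8.79) and 15.9 to 39.7 TPM in 8C-VE (median 18), a log2 fold change of 1.37 ± 0.179 (adjusted p = 0.00106). Anxa1, described above, was the other. Anxa6 had a log2 fold change of 0.32 ± 0.0992 and Areg, an EGF receptor ligand, of -0.05 ± 0.203, and neither was called. The promoters of Anxa1 and Ajuba are shown because these were the called members of this list and because both contain the core of the TEAD motif. Each sequence runs 5′ to 3′ on the strand of the gene, from 250 bases before to 50 bases after the RefSeq gene start (GRCm38.p6), and capitals mark GGAATG or its reverse complement CATTCC. The Anxa1 window is chr19:20390622-20390921 (minus strand) and the Ajuba window is chr14:54577612-54577911 (minus strand).
Anxa1: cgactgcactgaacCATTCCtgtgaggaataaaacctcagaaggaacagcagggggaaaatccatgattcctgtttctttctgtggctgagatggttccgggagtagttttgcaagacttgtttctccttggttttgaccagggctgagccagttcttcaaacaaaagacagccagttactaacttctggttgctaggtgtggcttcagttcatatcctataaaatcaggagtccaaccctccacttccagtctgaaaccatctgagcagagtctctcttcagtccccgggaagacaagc
Ajuba: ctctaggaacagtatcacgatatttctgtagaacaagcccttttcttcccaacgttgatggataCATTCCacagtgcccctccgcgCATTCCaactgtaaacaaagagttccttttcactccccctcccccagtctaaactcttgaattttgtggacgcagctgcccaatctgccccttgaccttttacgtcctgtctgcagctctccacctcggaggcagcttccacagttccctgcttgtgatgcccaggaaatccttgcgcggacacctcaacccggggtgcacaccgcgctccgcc

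The Anxa1 window held 1 match and the Ajuba window 2. Among the 5 YAP list genes with a promoter in the RefSeq table, 4 held the motif (Amotl2, Ajuba, Il33 and Anxa1), and among 8 fetal-like markers with a promoter 2 did (Anxa1 and Il1rn). The share over all 27025 genes with a promoter was 16.6%. A match of 6 letters is a description of the window and not a measured binding site.

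ERK output genes are switched on by growth factor signalling and, in most cases, feed back to dampen it. Of the 18 listed, 16 were tested, 3 were called higher and none lower, and the list median was 0.488. Dusp6, the phosphatase that inactivates ERK in the cytoplasm, was 30.2 to 46.7 TPM in ENR (median 36.1) and 59.1 to 97.2 TPM in 8C-VE (median 80.5). Its media did not overlap, and the log2 fold change was 1.06 ± 0.0771 (adjusted p = 7.14e-05), with 0.885 to 1.43 in the single numbers. Etv4, a transcription factor of the PEA3 group, was 62.0 to 93.2 TPM in ENR (median 79.8) and 119 to 187 TPM in 8C-VE (median 160), a log2 fold change of 1.04 ± 0.0972 (adjusted p = 0.000265). Etv5, of the same group, was 17.9 to 27.4 TPM in ENR (median 23.4) and 38.2 to 56.3 TPM in 8C-VE (median 48.8), a log2 fold change of 1.06 ± 0.112 (adjusted p = 0.000447). These 3 genes moved in all 7 numbers but lay close to the 2-fold limit. Without replicate 5 only Etv4 was still called, and without replicate 2 or 3 the log2 fold change of Etv4 fell under 1. The feedback inhibitor Spry1 had an adjusted p of 0.00249 at a log2 fold change of 0.87 ± 0.136, whereas Spry4 (0.48 ± 0.168, adjusted p = 0.0728) did not pass. None of the 7 tested FGF ligand and receptor genes (median 0.00349) and none of the 8 tested EGF family genes (median 0.364) was called, and Egfr itself was 11.2 TPM in ENR and 12.5 TPM in 8C-VE in the median, with a 95% interval of the log2 difference from -0.201 to 0.262.

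Of 17 genes of the p38 pathway and the TIE receptors, the targets of Pexmetinib, 13 were tested and 1 was called higher, with a list median of 0.0837. This was Mapk11, which encodes p38 beta, at 0.342 to 2.08 TPM in ENR (median 1.22) and 2.44 to 6.51 TPM in 8C-VE (median 4.18), a log2 fold change of 1.33 ± 0.173 (adjusted p = 0.00106). Tek and Tie1, the genes of the TIE receptors, were under the expression minimum.

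Both media contain a BMP blocker. Of 11 BMP target genes, 8 were tested, 2 were called lower (Id1 and Id3) and 1 higher, with a median of -0.168. The list had no common direction across sets, with medians of -0.192 in libraries 1 to 3, 0.413 in libraries 4 to 6 and -1.19 in replicate 7. Id1 and Id3 encode inhibitors of basic helix-loop-helix factors and are switched on by the BMP SMADs. Id1 was 45.3 to 235 TPM in ENR (median 77.5) and 27.9 to 44.6 TPM in 8C-VE (median 35.2), a log2 fold change of -1.25 ± 0.272 (adjusted p = 0.0123). Id3 was 19.4 to 118 TPM in ENR (median 22.8) and 8.35 to 12.5 TPM in 8C-VE (median 9.57), a log2 fold change of -1.72 ± 0.271 (adjusted p = 0.00262). Neither gene overlapped between media. For Id1 the difference was -0.399 to -0.783 in numbers 1 to 3 and -2.7 in number 7, whose ENR library held the highest level, and libraries 1 to 3 alone gave a log2 fold change of -0.64, which was not called. Bambi, a decoy receptor for the same pathway, was higher in 8C-VE by 1.07 ± 0.144 (adjusted p = 0.00124). Smad6, an inhibitory SMAD, had a log2 fold change of -0.82 ± 0.377 and was not called, with -1.89 in libraries 1 to 3 alone and 0.46 in libraries 4 to 6 alone. Among BMP ligands, receptors and antagonists 11 of 16 were tested, and the ligand Bmp8b was the single call, from a median of 1.41 TPM (0.962 to 3.95) to 10.1 TPM (6.37 to 14.8), a log2 fold change of 2.02 ± 0.153 (adjusted p = 0.000103). The palindrome GGCGCC, a BMP SMAD element, was found in the promoters of 3 of 8 BMP targets with a promoter in the table (Id2, Id4 and Smad9) against 13.4% of all genes, and the window of Id3 did not hold these letters.

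Most Wnt target genes stayed under 2-fold. Of 19 listed, 16 were tested, 15 of them with a positive difference and 9 with an adjusted p under 0.05, 1 was called and the list median was 0.438. Axin2, a scaffold of the destruction complex and a feedback target of Wnt, was 93.9 to 137 TPM in ENR (median 98.9) and 81.8 to 152 TPM in 8C-VE (median 125). Its log2 fold change was 0.18 ± 0.105 (adjusted p = 0.273) with a 95% interval from -0.0567 to 0.413, which lies under a 2-fold rise. Sp5, a transcription factor gene and Wnt target, was higher in all 7 numbers, at 0.49 ± 0.0998 (adjusted p = 0.00842), and the ubiquitin ligase gene Rnf43, a negative feedback regulator, was at 0.61 ± 0.131 (adjusted p = 0.0109). Nkd1 (-0.33 ± 0.119) and the receptor gene Lgr5 (0.49 ± 0.157, adjusted p = 0.0561) did not pass, and Notum was under the expression minimum. Tnfrsf19, a receptor of the TNF family and a stem cell marker, was the called gene, at 0.535 to 2.75 TPM in ENR (median 1.76) and 3.42 to 8.24 TPM in 8C-VE (median 7.01), a log2 fold change of 1.53 ± 0.234 (adjusted p = 0.00233). The change was 2.17 in libraries 1 to 3 alone and 0.97, under 2-fold, in libraries 4 to 6 alone. Apcdd1, a membrane-bound Wnt inhibitor, had an adjusted p of 0.000507 but stayed under 2-fold at 0.91 ± 0.1.

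The TCF/LEF motif CTTTGAT, searched with its reverse complement ATCAAAG, was found in 2 of 12 Wnt target genes with a promoter in the table, against 4.29% of all genes. These were Tnfrsf19, the called member, and Sp5, which stayed under 2-fold, and they are printed for that contrast with the motif in capitals. The Tnfrsf19 window is chr14:61037938-61038237 (minus strand) and the Sp5 window is chr2:70474673-70474972 (plus strand). In the GENCODE annotation Tnfrsf19 runs from 60963875 to 61046490, so its window lies at a RefSeq start inside that gene.
Tnfrsf19: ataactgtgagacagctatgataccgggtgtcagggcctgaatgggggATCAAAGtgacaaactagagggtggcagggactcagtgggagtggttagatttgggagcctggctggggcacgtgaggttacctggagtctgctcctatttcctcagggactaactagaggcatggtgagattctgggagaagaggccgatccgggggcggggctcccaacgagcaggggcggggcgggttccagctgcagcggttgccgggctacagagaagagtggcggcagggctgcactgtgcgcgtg
Sp5: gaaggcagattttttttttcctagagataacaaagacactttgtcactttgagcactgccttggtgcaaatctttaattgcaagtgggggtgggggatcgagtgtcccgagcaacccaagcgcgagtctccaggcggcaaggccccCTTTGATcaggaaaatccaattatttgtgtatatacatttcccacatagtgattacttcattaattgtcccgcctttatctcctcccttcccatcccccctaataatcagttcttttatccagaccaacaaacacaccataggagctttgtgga

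Crypt base stem cell markers differed by less than 2-fold with 1 exception, Tnfrsf19, which was called. All 12 were tested, 10 had a positive difference, 7 had an adjusted p under 0.05, and the median was 0.447 against 0.0833 over all genes tested. Smoc2, a matricellular protein, was higher at 0.46 ± 0.101 (adjusted p = 0.0123) and Cdca7, a replication-linked gene, at 0.67 ± 0.111 (adjusted p = 0.00338), both under 2-fold. Olfm4, a secreted glycoprotein of the crypt base, went the other way in all 7 numbers, from 1591 to 2856 TPM in ENR (median 2599) to 682 to 1713 TPM in 8C-VE (median 1451), a log2 fold change of -0.89 ± 0.175 (adjusted p = 0.00759). It was past 2-fold in libraries 4 to 6 at -1.40. Proliferation genes were tested in full and none of the 22 was called. The median was 0.196, against 0.0833 over all genes tested. An adjusted p under 0.05 was reached by 4 of the 22, against 2281 of all 11990 genes tested. The replication licensing factor Mcm6 was among these 4, at 0.36 ± 0.05. All 22 had a positive difference, as did 7926 of the 11990 genes tested. Mki67 was at 107 TPM in ENR and 131 TPM in 8C-VE in the median (adjusted p = 0.186). The list median was 0.41 in libraries 1 to 3 and -0.0752 in libraries 4 to 6. Among 9 tested Notch pathway genes, none was called (median 0.0769).

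Genes of differentiated absorptive cells were lower in 8C-VE. Enterocytes are the absorptive cells of the villus, and of their 20 markers, all tested, 13 were called lower and none higher, with a median of -1.43. In bulk RNA, fewer cells of a type and less RNA per cell cannot be told apart. Sis, the brush border sucrase-isomaltase, was 266 to 1329 TPM in ENR (median 362) and 52.6 to 171 TPM in 8C-VE (median 78.9), without overlap, and its log2 fold change was -2.59 ± 0.419 (adjusted p = 0.00305). Apoa4, an apolipoprotein of chylomicrons, was 95.3 to 2321 TPM in ENR (median 694) and 58.4 to 353 TPM in 8C-VE (median 166), a log2 fold change of -2.23 ± 0.244 (adjusted p = 0.000539). Apoc3 fell by 2.42 ± 0.385 on the log2 scale, and was level in number 7, where its ENR library was already at 14.5 TPM. Fabp1, a fatty acid carrier and one of the most abundant transcripts, went from a median of 2997 to 1497 TPM, a log2 fold change of -1.01 ± 0.0961 (adjusted p = 0.000278) that dropped under the 2-fold limit without number 1, 2 or 3. Alpi, intestinal alkaline phosphatase, was an exception at 446 TPM in ENR and 497 TPM in 8C-VE in the median, with a 95% interval of the log2 difference from -0.417 to 0.427. Ada, adenosine deaminase, had a positive difference of 0.71 ± 0.173 (adjusted p = 0.0193) under 2-fold.

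The size of this fall depended on the set of libraries. The enterocyte median was -2.31 in libraries 1 to 3, -0.802 in libraries 4 to 6 and -0.464 in replicate 7. Libraries 1 to 3 alone called 18 of the 20 markers lower, libraries 4 to 6 alone 9, and libraries 4 to 7 alone 3. For Sis the differences were -3.98 to -4.18 in numbers 1 to 3 and -1.08 to -2 in the others. The ENR libraries 1 to 3 held the highest Sis and Apoa4 levels of all, as the plot of levels by replicate number shows.

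Several of the largest falls without overlap between media were genes of uptake and metabolism. Isx, an intestinal homeobox gene that represses beta-carotene uptake and conversion, was 100 to 477 TPM in ENR (median 158) and 1.82 to 52.4 TPM in 8C-VE (median 8.83), a log2 fold change of -4.10 ± 0.585 (adjusted p = 0.00171). Its change was -5.77 in libraries 1 to 3 alone, -2.04 in libraries 4 to 6 alone and -5.25 in number 7. Slc5a4b, a sodium-glucose cotransporter family member, went from a median of 38.2 TPM (7.97 to 122) to 2.13 TPM (0.903 to 3.84). Slc6a19, the neutral amino acid transporter of the brush border, went from 39.2 TPM (24.5 to 108) to 3.95 TPM (2.67 to 6.85), and Nat8, an acetyltransferase, from 84.5 TPM (25.2 to 153) to 7.35 TPM (3.52 to 10.5). Aldh1a1, which makes retinoic acid from retinal, went from 262 TPM (112 to 579) to 28.7 TPM (24.4 to 49.3), a log2 fold change of -3.19 ± 0.272 (adjusted p = 0.000208). Ugt2b5, a glucuronosyltransferase, Enpep, a brush border aminopeptidase, Nat8f5, the metallothionein gene Mt4 and the trypsin inhibitor gene Spink1 had log2 fold changes between -2.98 and -3.23. Sfrp5, a secreted Wnt antagonist, fell from 39.6 TPM (4.48 to 55.2) to 1.98 TPM (1.52 to 3.58).

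**Figure D2:**
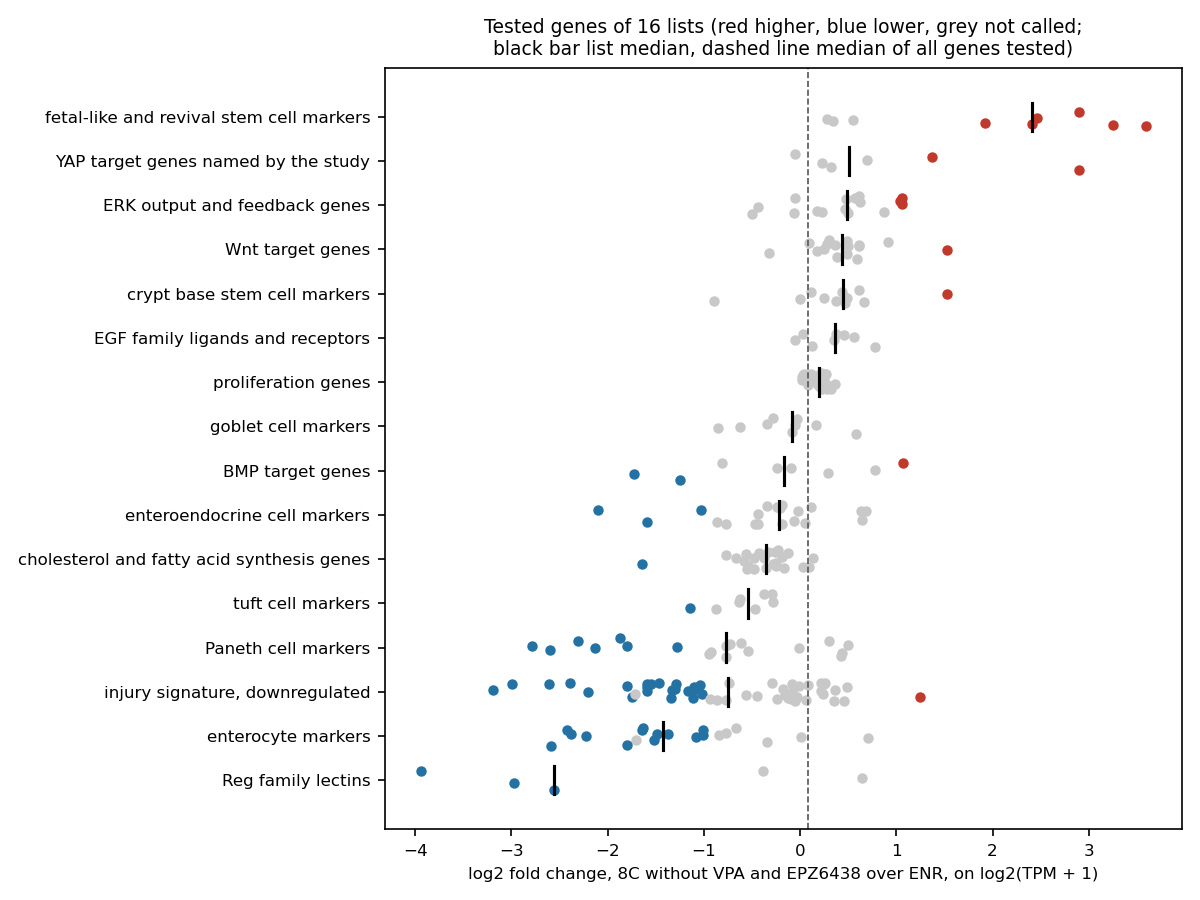
Log2 fold change of 8C-VE over ENR for each tested gene of 16 lists; red and blue points were called higher and lower, grey points were not called, black bars are list medians and the dashed line is the median of all genes tested, 0.0833. The fetal-like list has a median of 2.41, and the enterocyte and Reg lists have medians of -1.43 and -2.56.

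Paneth cells are the crypt base cells that secrete antimicrobial proteins. All 19 markers were tested, 7 were called lower and none higher, and the median was -0.773. By set the median was -1.3 in libraries 1 to 3, -0.66 in libraries 4 to 6 and -0.664 in replicate 7. Libraries 1 to 3 alone called 10 markers lower and libraries 4 to 6 alone 7. Over all libraries the called genes were 6 alpha-defensins and Mptx2. Defa21 was 476 to 754 TPM in ENR (median 686) and 36.4 to 318 TPM in 8C-VE (median 93.4), a log2 fold change of -2.79 ± 0.32 (adjusted p = 0.000638), and Defa22 had a log2 fold change of -2.60 ± 0.282 (adjusted p = 0.000507). Mptx2, a pentraxin, went from 220 TPM (39.2 to 355) to 50.4 TPM (3.20 to 79.7). By contrast, Lyz1, the Paneth cell lysozyme, was 1765 to 3500 TPM in ENR (median 3258) and 2533 to 4403 TPM in 8C-VE (median 3669), at 0.31 ± 0.162 (adjusted p = 0.221). Ang4 (0.44 ± 0.147, adjusted p = 0.0662) and Mmp7 (0.50 ± 0.188, adjusted p = 0.0926), an antimicrobial ribonuclease and the protease that activates defensins, had positive differences that were not called. Alpha-defensin genes are near-identical copies and reads may have been divided between them, so the split among single defensins is uncertain.

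The Reg family of secreted lectins, which are antimicrobial or linked to repair, had the lowest median of the lists over all 7 numbers. All 5 were tested, 3 were called lower and the median was -2.56. By set the Reg median was -3.83 in libraries 1 to 3. In libraries 4 to 6 it was -0.358, and the enterocyte list was lower at -0.802. In replicate 7 it was -0.942, and the BMP targets were lower at -1.19. Reg3a was 33.0 to 793 TPM in ENR (median 461) and 11.4 to 35.7 TPM in 8C-VE (median 21.3), a log2 fold change of -3.94 ± 0.425 (adjusted p = 0.000507), lower in all 7 numbers. Reg1 had a log2 fold change of -2.56 ± 0.449 (adjusted p = 0.0046). Reg3b (-2.97 ± 0.808, adjusted p = 0.0311) fell most in numbers 1 to 3, with differences of -4.83 to -6.07, and was at -2.93 in number 7, -1.44 in number 5, 0.311 in number 4 and 0.054 in number 6. Its call was lost without number 1, 2, 3, 5 or 7 (log2 fold changes of -2.46 to -3.52 over all single omissions). Reg3g (-0.39 ± 0.357) was not called, and Reg4 was higher at 0.65 ± 0.121 (adjusted p = 0.00595), under 2-fold. Libraries 4 to 7 alone called 1 Reg gene.

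Enteroendocrine cells secrete gut hormones, and 3 of their 20 tested markers were called lower, all hormones, with a list median of -0.223. By set the median was -0.508 in libraries 1 to 3, 0.0763 in libraries 4 to 6 and -0.448 in replicate 7. Sst, somatostatin, went from 69.7 TPM (43.4 to 154) to 12.4 TPM (6.29 to 93.1), a log2 fold change of -2.10 ± 0.226 (adjusted p = 0.000468). Gcg, the precursor of the GLP hormones, was at -1.59 ± 0.353 (adjusted p = 0.0136) and Gip at -1.03 ± 0.181 (adjusted p = 0.00447), which was under 2-fold without number 1 or 3. Without the replicate block 1 of these 3 was called, and libraries 4 to 7 alone also called 1. Chga, a granule protein, was at -0.77 ± 0.18 (adjusted p = 0.0163). Of 8 tested tuft cell markers 1, Rgs13, was called lower (-1.15 ± 0.125, adjusted p = 5e-04), with a median of -0.545, and none of the 9 tested goblet cell markers was called (median -0.0801), with the mucin Muc2 at -0.34 ± 0.293. Muc2 changed direction between sets, at -1.315 in libraries 1 to 3 alone and 0.47 in libraries 4 to 6 alone. Atoh1, the factor that specifies secretory cells, was at 0.35 ± 0.13 (adjusted p = 0.0913).

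The study's own signatures of the injured epithelium behaved unequally. They were built from published data of injured epithelium and not from these libraries. Of 63 genes listed as raised after injury, 51 were tested, 1 was called higher (Ly6a) and 2 lower (Reg3b and Hmox1), with a median of 0.117. Of 54 genes listed as lowered after injury, 52 were tested, 22 were called lower and 1 higher, with a median of -0.753. Aldh1a1 and Scin had the largest falls, the latter an actin-severing protein at -2.99 ± 0.474, and Gas6, a growth factor that binds TAM receptors, was the exception at 1.25 ± 0.288 (adjusted p = 0.0159), a call that was lost without number 5. In libraries 4 to 6 the lowered list had a median of -0.082 with 12 called lower, and in libraries 1 to 3 a median of -1.19 with 29 called lower.

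Of 25 cholesterol and fatty acid synthesis genes, all tested, 1 was called, with a median of -0.351. This was Scd1, stearoyl-CoA desaturase, at -1.64 ± 0.267 (adjusted p = 0.00315). The list median was -0.756 in libraries 4 to 6, where 4 genes were called lower, and 5.14e-05 in libraries 1 to 3. Hmgcs1 (-0.33 ± 0.103) and Sqle (-0.25 ± 0.122) were not called. The sterol element TCACNCCAC occurred in 1 of 15 promoters of this list (Hmgcs1), against 1.44% of all genes. Of 11 tested NRF2 and aryl hydrocarbon receptor targets 1 was called lower (median -0.352), the haem-degrading enzyme gene Hmox1 at -1.41 ± 0.255 (adjusted p = 0.00532), and Cyp1a1 was at 0.42 ± 0.503. None of 16 tested glycolysis and hypoxia genes (median 0.0552), 14 interferon-stimulated genes (median 0.147) or 3 MHC class II genes (median -0.436) was called. Cd74 and Ciita were under the expression minimum, at no more than 1.28 and 0.133 TPM in 8C-VE. Of the 5 genes that lead complete 8C medium over ENR in earlier results of these data, 2 were expressed highly enough to be tested. Bex1 was called at 1.01 ± 0.184 (adjusted p = 0.00535), a call that was lost without number 2, 4, 6 or 7, with 5.17 TPM in the median of 8C-VE, against a mean of 197 TPM in complete 8C. Bex4 was 0 to 5.12 TPM in 8C-VE and had a mean of 445 TPM in complete 8C, and Ldhb (0.41 ± 0.232) was not called.

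**Figure D3:**
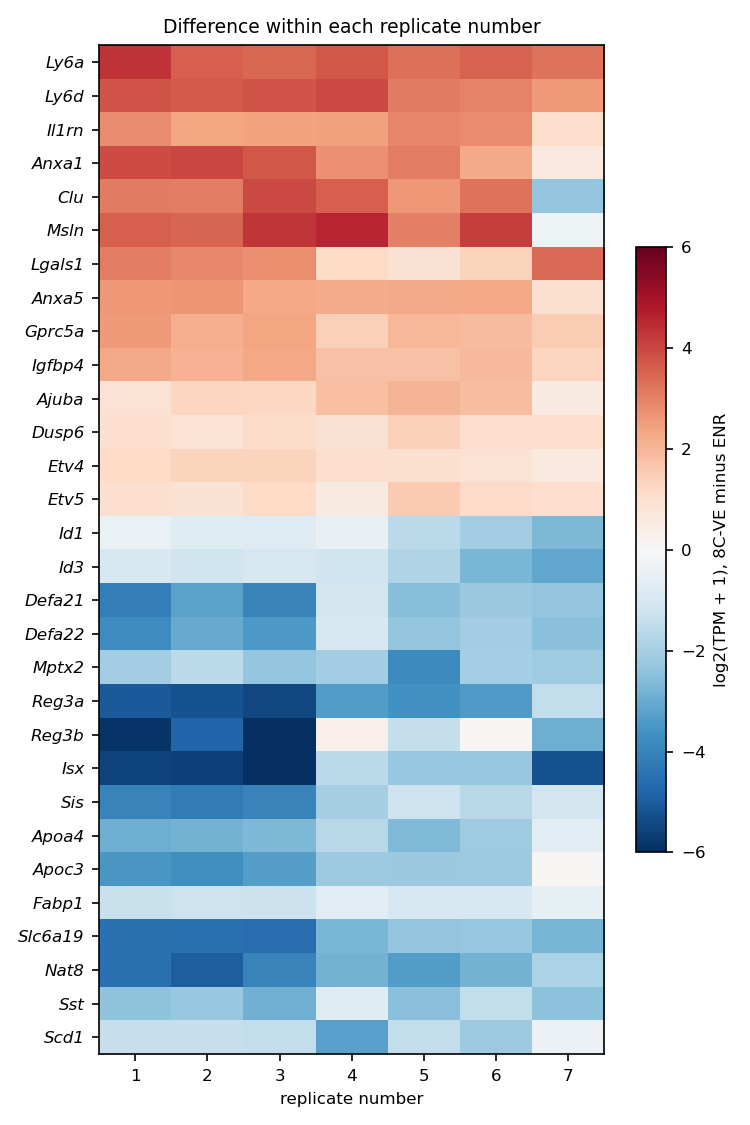
Difference of 8C-VE minus ENR on log2(TPM + 1) within each replicate number (columns) for 30 genes (rows), red for higher and blue for lower in 8C-VE. Sis, Slc6a19 and Reg3a fell most in numbers 1 to 3, Ly6a rose by 3.24 to 4.32 in every number, and Clu and Msln were lower in number 7 only.

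A similar exchange of base medium can be read in the presence of VPA and EPZ6438, by comparing the 7 libraries of complete 8C with the 3 of ENR+VE, although equal drug doses cannot be assumed. These share no library with the comparison above. Of 12856 genes tested, 498 were called, 186 higher in 8C (1.45%) and 312 lower (2.43%). Without any 1 of the ENR+VE libraries 317 to 328 were called. Of the 433 genes called without the drugs, 402 were tested with them, and 388 (96.5%) moved in the same direction, 138 of 146 higher and 250 of 256 lower genes. In total 214 genes were called in the same direction in both, which is 49.4% of the calls without and 43.0% of those with the drugs, and 1 was called in opposite directions. Across the 11781 genes tested in both, the log2 fold changes correlated with r = 0.743, where genes are not independent replicates and equal replicate numbers may share an origin.

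Ly6a was 4.58 to 5.24 TPM in ENR+VE and 61.0 to 853 TPM in 8C (median 403), a log2 fold change of 5.40 ± 0.824 (adjusted p = 0.00162). Anxa1 was 4.49 to 5.66 TPM in ENR+VE and 27.1 to 152 TPM in 8C, at 3.37 ± 0.529 (adjusted p = 0.00196). The 3 ENR+VE libraries correlated more closely with 8C libraries 1 to 3 than with 8C libraries 4 to 6 (0.945 to 0.951 against 0.940 to 0.944), and Ly6a was 61.0 to 104.5 TPM in the former and 403 to 853 TPM in 8C libraries 4 to 7. Against 8C libraries 1 to 3 alone, where 712 of 12711 genes were called (5.6%), the log2 fold change was 3.67 ± 0.231 for Ly6a (adjusted p = 0.000255) and 2.33 ± 0.155 for Anxa1 (adjusted p = 0.000284). The difference of effects without and with the drugs, from a single fit of all 4 media with the replicate block, was -0.65 ± 0.406 for Ly6a (adjusted p = 0.784) and was not called for Anxa1 (adjusted p = 0.995). For Ly6a this is not the plain difference of the log2 fold changes 3.59 and 5.40, because the block enters the fit. Equal numbers did not pair ENR+VE with 8C, as given below, so no more is read from these values. Id1 (-1.98 ± 0.297, adjusted p = 0.00142), Id3 (-1.81 ± 0.21, adjusted p = 0.000212), Sis (-4.44 ± 0.94, adjusted p = 0.0143), Defa21 (-3.53 ± 0.633, adjusted p = 0.00514) and Reg3a (-5.77 ± 0.5, adjusted p = 2e-05) were also called with the drugs, and stayed called against 8C libraries 1 to 3 alone, with Sis at -5.73 and Reg3a at -6.71. Against all 7 8C libraries Etv4 was at 0.60 ± 0.132, below 2-fold, and Dusp6 was not past the threshold (adjusted p = 0.197). Against 8C libraries 1 to 3 alone Etv4 was at 0.71 ± 0.0871 (adjusted p = 0.00312) and Dusp6 at 0.67 ± 0.154 (adjusted p = 0.0444), both under 2-fold. By list, 6 of 13 tested fetal-like markers were higher with the drugs (median 2.01), and 13 of 20 enterocyte markers (median -2.29) and 10 of 18 Paneth cell markers (median -2.55) were lower.

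**Figure D4:**
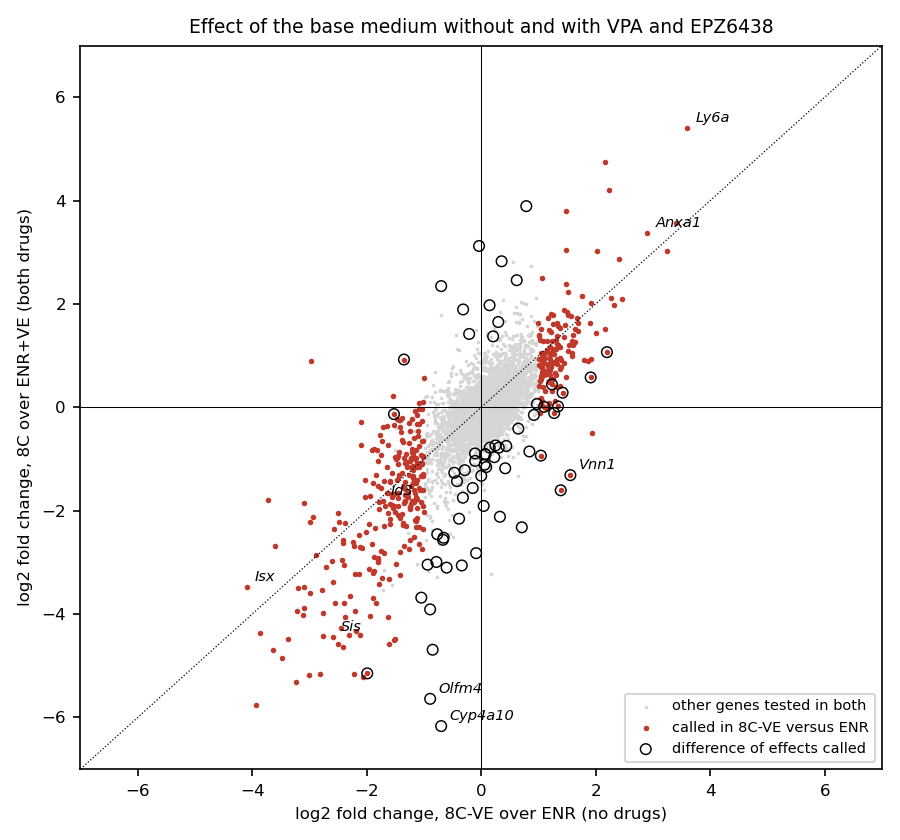
Log2 fold change of 8C-VE over ENR (x axis) against that of 8C over ENR+VE (y axis) for genes tested in both; red points were called without the drugs, open circles mark genes whose difference of effects was called, and the dotted line marks equal change. Most red points keep their sign (96.5%), and Olfm4 and Cyp4a10 lie far below the line.

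The difference between both effects was then tested gene by gene. Of 12591 genes, 93 (0.739%) were called, 61 of them with a larger value without the drugs, and 14 of the 429 genes called in the base comparison and tested here were among them. That last count shares its libraries with the base comparison, so no more is read from it. The count rested on single numbers: it was 27 without number 1, 46 without number 3, 49 without number 5, 53 without number 2 and 55 without number 6, and 118 without number 7. Olfm4 was 924 to 1260 TPM in ENR+VE and 6.57 to 41.1 TPM in 8C, against the modest fall described above, so the effects differed by 4.41 ± 0.448 on the log2 scale (adjusted p = 4.11e-05). Cyp4a10, a fatty acid hydroxylase under PPAR alpha control, was at most 3.01 TPM in ENR and 1.30 TPM in 8C-VE, 284 to 315 TPM in ENR+VE and 1.48 to 13.2 TPM in 8C, a difference of effects of 5.30 ± 0.525 (adjusted p = 3.69e-05). Pdk4, a kinase that shuts off pyruvate oxidation and another PPAR target, was highest in ENR+VE at 37.2 to 54.5 TPM and differed by 3.65 ± 0.582 (adjusted p = 0.00357). For Vnn1, a pantetheinase (3.74 ± 0.64, adjusted p = 0.0061), and for Pdk4, the 8C-VE libraries 4 to 6 lay above the others.

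Zg16, a lectin of the mucus layer, was 105 to 239 TPM in ENR and 36.8 to 360 TPM in 8C-VE, but 182 to 248 TPM in ENR+VE and 1.02 to 30.8 TPM in 8C, a difference of effects of 3.80 ± 0.772 (adjusted p = 0.0226). Among the genes of the base comparison, Anxa5 (1.42 ± 0.278, adjusted p = 0.0173) and Ppic (1.40 ± 0.277, adjusted p = 0.0191) rose more without the drugs. In ENR+VE both were already above their ENR level, Anxa5 at 81.2 to 93.3 TPM and Ppic at 97.0 to 119 TPM. Ang4 had a difference of effects of 1.44 ± 0.322 (adjusted p = 0.0418). Without the replicate block the calls of Vnn1, Pdk4, Anxa5, Ppic and Ang4 were lost. Deviations of the ENR+VE libraries from their mean correlated with those of the equally numbered 8C libraries at 0.306, -0.38 and -0.587. Equal numbers therefore did not pair these groups, and these 5 calls rest on a block without that ground. All differences of effects given here, those of Ly6a and Anxa1 included, come from the same fit. Its count of 93 genes was 73 without the block.

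**Figure D5:**
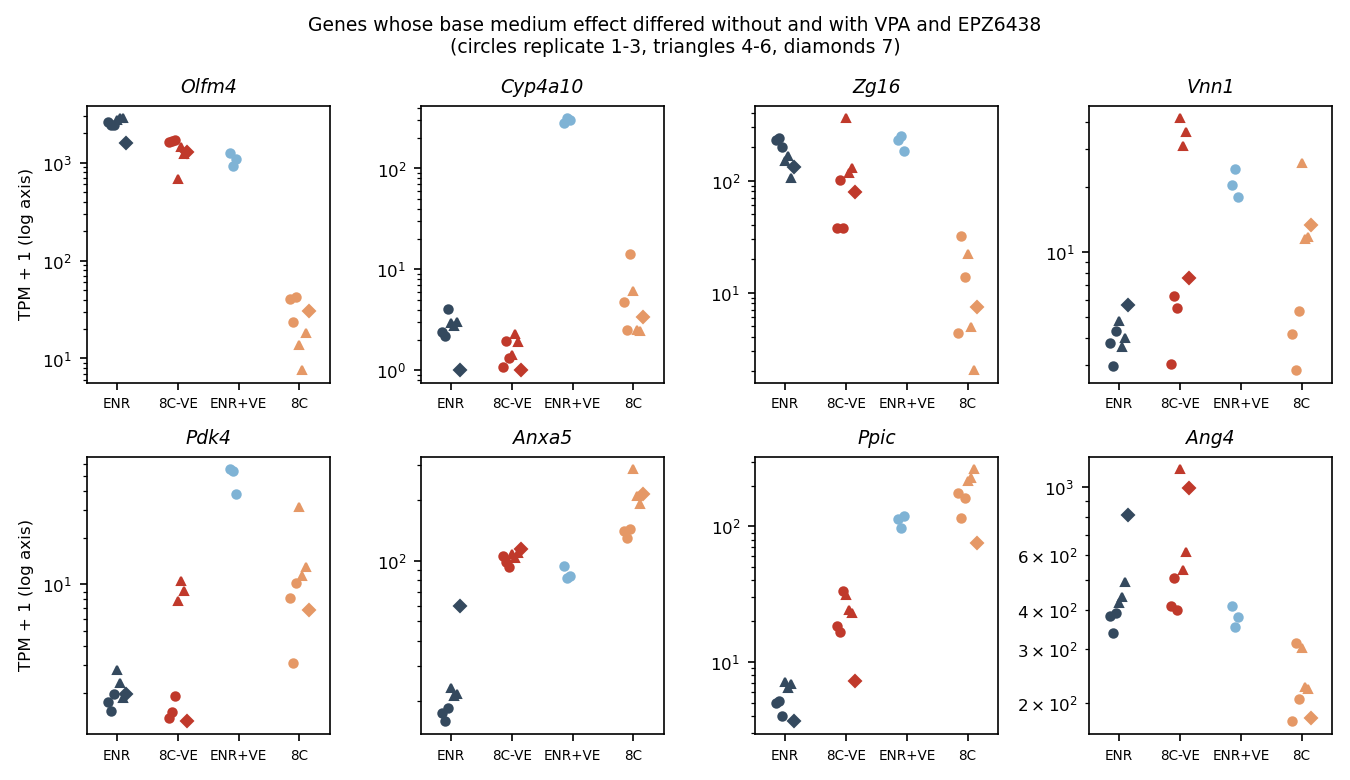
Level of 8 genes, as TPM + 1 on a log axis, in each library of ENR, 8C-VE, ENR+VE and 8C; circles are replicate numbers 1 to 3, triangles 4 to 6 and diamonds 7. Olfm4 and Zg16 are low in 8C alone among the 4 media, and Cyp4a10 is high in ENR+VE alone.

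Single additives of the base had been left out of complete 8C medium in 3 libraries each, which bears on the same additives but in the presence of both drugs. Without GSK3iXV 0 of 12806 genes were called (0%) at 836 genes with an unadjusted p under 0.05 (limma), and without bFGF 1 of 12834 (0.00779%). Without Pexmetinib 62 of 12860 were called (0.482%), among them 5 of the 79 tested genes that the naming rule chose. Muc2 (1.73 ± 0.2), Atoh1 (1.44 ± 0.274), Ang4 (1.41 ± 0.211), Mmp7 (1.33 ± 0.267) and Rgs13 (2.21 ± 0.248) were each higher without it, with adjusted p-values from 0.00155 to 0.0498, while Lyz1 (0.05 ± 0.259, adjusted p = 0.958), Chga (1.47 ± 0.391, adjusted p = 0.139) and Sst (2.44 ± 0.549, adjusted p = 0.0902) did not pass. Without EGF, which ENR medium also contains, 58 of 12849 were called (0.451%), among them 8 of the 77 genes tested that the naming rule chose, and Apcdd1, which was added later (1.26 ± 0.226, adjusted p = 0.0305). Olfm4 rose by 4.41 ± 0.522 (adjusted p = 0.00325), Defa21 by 4.03 ± 0.639 and Lyz1 by 1.53 ± 0.245, while Fabp1 fell by 2.36 ± 0.279 and Gprc5a by 1.61 ± 0.284. Ly6a was not called against the 7 pooled 8C libraries in any of the 4 omissions, but its 8C level differed between sets, as given above.

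These omissions depend on which 8C libraries they are set against. Each omission library correlated more closely with 8C libraries 4 to 6 than with 8C libraries 1 to 3 (0.968 to 0.986 against 0.936 to 0.963). Against 8C libraries 4 to 6 alone, 7 genes were called without GSK3iXV (0.0551%), 105 without Pexmetinib (0.821%), 1 without bFGF (0.00784%) and 341 without EGF (2.67%). Ly6a was then lower without EGF, at 123.5 to 141.5 TPM against 403 to 811 TPM, a log2 fold change of -2.02 ± 0.236 (adjusted p = 0.00569), and was not called in the other omissions. Against 8C libraries 1 to 3 alone, the share of genes called was 7.12% without GSK3iXV, 6.25% without Pexmetinib, 5.53% without bFGF and 3.56% without EGF. Set against the 61.0 to 104.5 TPM of these libraries, Ly6a was higher without GSK3iXV (2.14 ± 0.254), Pexmetinib (2.14 ± 0.386) and bFGF (2.85 ± 0.29), and not called without EGF (0.84 ± 0.21, adjusted p = 0.0612). With no omission, 8C libraries 4 to 6 already held 403 to 811 TPM. These rises and shares therefore cannot be told apart from the difference between sets. Against either set, the 5 named genes without Pexmetinib were called in the same direction. So were Olfm4, Defa21, Lyz1, Fabp1 and Gprc5a without EGF. Muc2 was also higher without GSK3iXV, at 1.21 ± 0.194 against 8C libraries 1 to 3 (adjusted p = 0.0077). Against 8C libraries 4 to 6 it was at 1.42 ± 0.116 (adjusted p = 0.00573), though it was not called against all 7 (adjusted p = 0.0976). Apcdd1 without EGF was called against 8C libraries 1 to 3 (1.57 ± 0.214). It stayed just under 2-fold against libraries 4 to 6 (0.98 ± 0.142, adjusted p = 0.00676). Set against 8C libraries 1 to 3 alone, 19 to 30 named genes were called per omission, set against 8C libraries 4 to 6 alone 0 to 20, and leaving out 1 omission library brought the named calls down to 2 or 3 for Pexmetinib and for EGF.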

How the data were processed

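Total RNA of mouse organoids was sequenced as paired-end libraries, and the authors used Trimmomatic 0.39 for trimming, STAR 2.7.3a for alignment to mm10 and featureCounts for counting, whose version is not given in the sources used here. The deposited values were TPM for 29579 genes, and the annotation used for TPM is not given in the sources used here. TPM keeps no depth, so no counting error is stated. Values were transformed to log2(TPM + 1), and genes averaging 1 TPM or more over the libraries in question were tested in R 4.3.3 with limma 3.58.1 (lmFit, eBayes with trend and robust, Benjamini-Hochberg). A gene was called at an adjusted p under 0.05 and at least 2-fold. No pair of the 14 libraries held identical values, and all 14 were used. Groups and replicate numbers came from the labels. Deviations from the group means correlated between equal numbers of both media at 0.313 to 0.642, and the number was a block in the comparison of 8C-VE with ENR and in the test of the difference of effects, but not in the comparisons of 8C with ENR+VE or with the omissions.

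The comparison and all 30 gene lists were chosen with earlier results of these data known. Named genes were the 12 largest rises and 12 largest falls without overlap between media, predicted genes left out, key genes of the lists, up to 2 called members per list, and the 5 largest differences of effects. Bambi, Gip, Reg1, Anxa3, Apcdd1, Mptx2, Reg4, Spry1, Gas6, Mcm6, Ada, Cdca7, Krt18 and the genes named only as counted members of a list were added after their values were seen. The pipeline was tested on simulated data. Alternatives were quantile normalization, plain eBayes, scaling by the 75th percentile, no fold limit, an expression minimum raised to 5 TPM or dropped, a pseudocount of 0.1 TPM, other uses of the block, all organoid groups in 1 fit, subsets of replicate numbers and the omission of single replicates. Replicate numbers 4 to 6 alone, and 8C libraries 1 to 3 alone against ENR+VE, were added after seeing the data. Single-cell, ChIP-seq and crypt data were not used here.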

Additional observations from a re-analysis of the deposited data

Results flagged for a closer look

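Among the 7 libraries of a medium, single libraries stood apart from the others by Dixon's criterion in 22 of 194 combinations of gene and medium, where chance gives about 1 in 20. Replicate 7 was that library in 20 of them. In the ENR library of replicate 7, Anxa5 (58.7 TPM), Axin2 (137 TPM), Areg (355 TPM), Ang4 (811 TPM), Bex1 (6.69 TPM) and Ciita (0.119 TPM) were above the other 6 libraries. Mt4 (19.9 TPM), Sfrp5 (4.48 TPM), Olfm4 (1590 TPM), Smoc2 (245 TPM), Fabp1 (762 TPM), Apoc3 (14.5 TPM), Reg3a (33.0 TPM) and Reg1 (32.6 TPM) were below them there. In the 8C-VE library of replicate 7, Notum (1.5 TPM), Areg (239 TPM) and Atoh1 (25.4 TPM) were highest, and Smoc2 (457 TPM), Etv4 (119 TPM) and Fabp1 (512 TPM) were lowest. The others were Olfm4 at 682 TPM in 8C-VE replicate 4, against 1220 to 1710 TPM in the other libraries, and Bex4 at 1.14 TPM in ENR replicate 4.

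The effect of the base medium differed without and with the drugs in 8 of the 94 genes followed and tested, by limma's test of the difference of effects on the log2 scale, against 93 of 12591 genes (0.739%) over the whole table. Cyp4a10, Olfm4, Zg16, Vnn1 and Pdk4 had been named for having the largest such differences, so no more is read from this count. The differences were 5.30 for Cyp4a10, 4.41 for Olfm4, 3.80 for Zg16, 3.74 for Vnn1, 3.65 for Pdk4, 1.44 for Ang4, 1.42 for Anxa5 and 1.40 for Ppic. Without the replicate block, Vnn1, Pdk4, Anxa5, Ppic and Ang4 were not called.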

How the results depend on the processing

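None of the 57 called genes followed changed direction in any of the alternatives run, 47 stayed called whichever single replicate number was left out, and 10 did not. Genes called between 8C-VE and ENR numbered 2281 with no minimum fold change (1528 higher, 753 lower), 795 in replicate numbers 1 to 3 (566 lower) and 304 in numbers 4 to 7 (123 lower). Those called higher were 249 with a pseudocount of 0.1 TPM, 99 at a minimum mean of 5 TPM and 335 in numbers 4 to 6. Leaving out 1 number gave 367 to 496 genes, 136 to 183 higher and 217 to 313 lower. Called Wnt target genes numbered 2 with that pseudocount and in numbers 1 to 3, and 0 at a mean of 5 TPM and in numbers 4 to 6. Numbers 4 to 7 alone called 3 enterocyte markers, 1 Reg gene, 1 enteroendocrine marker and 10 genes of the lowered injury signature, and numbers 4 to 6 called 1 enteroendocrine marker, 12 genes of that signature and 4 cholesterol genes. Called ERK genes numbered 1 to 3 over the single omissions. The causes were not tested.

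Without the replicate block 383 genes were called, 51 of the 57 genes followed among them, and 1 enteroendocrine marker. For the difference of effects 93 genes were called with and 73 without the block, 37 at a minimum mean of 5 TPM and 27 to 118 over the single omissions, and 8C against ENR+VE gave 317 to 328 without 1 ENR+VE library and 492 with a block. Named genes called without GSK3iXV were 0 but 1 with quantile normalization, 1 with plain eBayes, 26 with a replicate block, 30 against 8C libraries 1 to 3 and 1 against 4 to 6. Without Pexmetinib they were 3 with the smaller pseudocount, 2 at 5 TPM, 18 with a block, 27 and 8 against the 8C sets, and 2 to 3 over single omissions. Without bFGF they were 18 with a block and 19 against 8C libraries 1 to 3, and without EGF 5 with the smaller pseudocount, 4 with no minimum mean, 22 and 20 against the 8C sets, and 2 to 3 over single omissions. Numbers of the omission and ENR+VE libraries do not pair with those of 8C.

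Log2 fold changes that changed sign all belonged to genes that were not called. Egfr was -0.051 with quantile normalization, -0.018 with scaling to the 75th percentile, -0.042 in numbers 4 to 7 and -0.019 to 0.092 over single omissions, and Alpi -0.047 with that scaling, -0.12 in numbers 4 to 7 and -0.12 to 0.21 over single omissions. Areg was 0.60 in numbers 1 to 3 and -0.19 to 0.10 over single omissions, and Sqle 0.072 in numbers 1 to 3. In numbers 4 to 7 and 4 to 6, Muc2 was 0.39 and 0.47, Reg3g 0.37 and 0.80, Cyp1a1 -0.68 and -1.33, and Zg16 0.075 and 0.35, and Smad6 was 0.46 in numbers 4 to 6. TPM values leave sequencing depth unknown, so how far depth limits low genes could not be assessed.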

Other observations

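The genes below were picked for large changes or high levels after their values were seen. S100a6, a calcium-binding protein, was 18.8 to 274 TPM in ENR (median 31.8) and 108 to 353 TPM in 8C-VE (median 190), a log2 fold change of 2.26 ± 0.278 (adjusted p = 0.000878, limma), higher in all 7 replicate numbers although the media overlapped. Krt18, a keratin of simple epithelia, was 822 to 1764 TPM in ENR and 1505 to 2979 TPM in 8C-VE, at 0.75 ± 0.0876 (adjusted p = 0.000669, limma), and stayed under 2-fold. Aqp8, a water channel, was 0.359 to 38.5 TPM in ENR (median 19.6) and at most 0.543 TPM in 8C-VE, at -3.81 ± 0.508 (adjusted p = 0.00124, limma). Ctrb1, a chymotrypsinogen, was 8.39 to 204 TPM in ENR (median 110) and 2.32 to 10.7 TPM in 8C-VE (median 5.53), at -3.73 ± 0.553 (adjusted p = 0.00213, limma), and was lower in 6 of 7 numbers.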
